A study of Homo sapiens with 12 samples.

Results

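The cytosolic ribosomal protein genes encode the protein part of the ribosome that translates nuclear-encoded mRNAs. They were taken from a table of 56634 gene symbols as every symbol made of RPL or RPS and a number, with an optional ending for a paralogue, plus RPLP0, RPLP1, RPLP2 and RPSA, provided that at least 120 counts were summed over 12 libraries. Of 87 symbols with such a name, 82 reached this minimum and form the set described here. They comprise 31 proteins of the small subunit, 43 of the large subunit, 3 of the large-subunit stalk (RPLP0, RPLP1 and RPLP2) and 5 paralogues with a core partner (RPL7L1, RPL22L1, RPL26L1, RPS27L and RPS4Y1). RPL36A, with 147 summed counts, and RPS4Y1, with 741, lay just inside the minimum, whereas RPS10L with 9 and RPL3L with 8 lay just outside, followed by RPL39L with 2 and by RPL10L and RPS4Y2 with 0. The genes were thus selected on their name and on their summed count, that is, on their overall level, so the levels below are a description, and only the contrasts between treatments were tested.

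HCT116, an established human colon carcinoma line, was sampled in 4 groups of 3 biological replicates. The first received 1 μM Senexin B, an inhibitor of the Mediator kinases CDK8 and CDK19, for 1 hour and then 10 ng/mL of TNF-α for 2 hours ("TNF-α plus Senexin B"). The second received 0.1% DMSO for 1 hour and then TNF-α at the same dose and for the same time ("TNF-α"). The third received 1 μM Senexin B for 3 hours ("Senexin B") and the fourth 0.1% DMSO for 3 hours ("vehicle"). All groups were grown in the same serum-containing medium, and 1 cell line, 1 dose of each agent and 1 time point were used.

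A ribosome holds 1 copy of nearly every core ribosomal protein, so cells make these proteins in close proportion, from mRNAs that are among the most abundant and most stable in growing cells. Transcripts of these genes typically start with an unbroken run of pyrimidines, the 5′ terminal oligopyrimidine (TOP) tract, through which mTOR and LARP1 adjust translation, so that much of the control of ribosome production acts on translation and not on mRNA level. The stalk proteins recruit the translation factors that hydrolyse GTP on the ribosome. TNF-α acts mainly through NF-κB, and the Mediator kinases act on transcription of signal-induced genes.

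Libraries held from 5835226 to 9281176 counts, and 13084 genes, all 82 ribosomal protein genes among them, passed the filter on low counts and were tested. Known target genes moved with the treatments. The NF-κB inhibitor gene NFKBIA averaged 295 ± 4.63 CPM with TNF-α and 25.3 ± 0.237 CPM with vehicle, and the immediate early gene JUN averaged 11.2 ± 1.03 CPM with Senexin B and 28.0 ± 1.41 CPM with vehicle (SD, n = 3 each). CPM is the usual depth-scaled count (counts per 1000000 counts), here with library totals scaled by TMM factors. The summed level of 5 epithelial markers ran from 3872 to 4686 CPM, whereas that of 4 blood cell markers never exceeded 0.539 CPM and that of 3 endothelial markers never exceeded 0.977 CPM. Of 3 fibroblast markers, COL1A1 had group means between 9.27 and 10.3 CPM, while DCN had 0 and COL3A1 had 7 counts over all libraries. Vehicle replicate 1 and TNF-α replicate 1 stood apart from their groups. The chi-square per degree of freedom was between 2.45 and 2.76 for pairs with either of them and between 1.21 and 1.71 for all other pairs within a group.

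The transcript starts of several of these genes are shown because the TOP tract is the feature that the family is known for. At the annotated starts, some paralogues differed in it from their core partners, whereas RPL22 and RPL22L1 both had it. Promoter windows from RefSeq (GRCh38.p14, 250 bases before to 50 bases after each annotated start) were found for 67 of the 82 genes, in 83 windows. Each line gives 30 bases before and 15 bases from the annotated start on the strand of the gene, with the pyrimidine tract in capitals where it begins with C at the start and holds at least 4 further C or T.
RPLP0: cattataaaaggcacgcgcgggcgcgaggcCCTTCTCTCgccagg
RPLP1: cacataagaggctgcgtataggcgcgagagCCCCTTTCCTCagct
RPL13A: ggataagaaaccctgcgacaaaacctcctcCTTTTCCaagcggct
RPL36: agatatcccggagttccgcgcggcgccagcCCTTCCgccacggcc
RPL39: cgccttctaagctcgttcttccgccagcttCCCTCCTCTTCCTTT
RPS15: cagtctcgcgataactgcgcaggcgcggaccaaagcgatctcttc
RPS27: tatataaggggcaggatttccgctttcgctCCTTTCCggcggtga
RPS27L: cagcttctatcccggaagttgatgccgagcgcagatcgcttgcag
RPL22: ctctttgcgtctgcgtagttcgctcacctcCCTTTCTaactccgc
RPL22L1: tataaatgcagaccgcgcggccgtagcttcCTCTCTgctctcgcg
RPS4X: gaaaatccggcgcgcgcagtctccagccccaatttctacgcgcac
RPS4Y1: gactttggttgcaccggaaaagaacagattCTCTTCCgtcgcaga

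These stretches lie at chr12:120201097-120201141 on the minus strand for RPLP0, chr15:69452788-69452832 on the plus strand for RPLP1, chr19:49487578-49487622 (plus) for RPL13A, chr19:5690265-5690309 (plus) for RPL36, chrX:119791616-119791660 (minus) for RPL39 and chr19:1438366-1438410 (plus) for RPS15. Those of RPS27 and RPS27L lie at chr1:153990732-153990776 (plus) and chr15:63157463-63157507 (minus), those of RPL22 and RPL22L1 at chr1:6199581-6199625 (minus) and chr3:170870181-170870225 (minus), and those of RPS4X and RPS4Y1 at chrX:72277234-72277278 (minus) and chrY:2841572-2841616 (plus), all in GRCh38.p14. A tract of this form began at 48 of the 83 member starts (57.8%), against 1429 of all 35116 windows in the table (4.07%). It began at 46 of 77 starts of core genes and at 2 of 6 starts of paralogues, which were those of RPL22L1 and RPS4Y1. RPS4X, the core partner of RPS4Y1, had none at its annotated start. Of other motifs, each searched on both strands anywhere in the window, the ETS-type motif CCGGAAG was present in 28 member windows (33.7%, against 10.3% of all windows) and TATAAA in 6 (7.23%, against 11.5%). For a gene without a tract here, such as RPS15, this says only that these letters do not stand at the annotated start.

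Across all 12 libraries the core genes were expressed at levels within a narrow band. Per kilobase of coding sequence, the median of the 82 genes was 1412 CPM, with quartiles of 1110 and 1926 CPM. The highest were RPL41, which encodes the shortest ribosomal protein, at 3649 CPM per kilobase, RPS18 at 3173, RPLP1 at 3146, RPLP0 at 2964 and RPS2 at 2808. Counts from the whole gene are divided by coding length only, which raises genes whose coding sequence is a small part of the transcript. RPL41 has 75 coding bases in a transcript of 469, and its mean of 274 CPM lay below the median of 645 CPM over the 82 genes. As rows of the table, 24 of the 82 genes stood among the 100 rows with most counts. On the scale of coding length the highest level, that of RPL41, was 2.58 times the median, but the band was open downward.

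The lowest genes were RPL36A at 4.70 CPM per kilobase, RPS4Y1 at 9.55, RPS10 at 34.4, RPL17 at 74.2 and RPL26L1 at 94.1. RPL36A, RPS10 and RPL17 encode core ribosomal proteins. Their exons are shared on the same strand with annotated readthrough genes, by 77.6% of exonic bases with RPL36A-HNRNPH2, 77.0% with RPS10-NUDT3 and 91.0% with RPL17-C18orf32, and those 3 readthrough rows themselves held only 0, 9 and 13 counts over the 12 libraries. Reads that fall on exons of more than 1 gene are not assigned to any gene under the default of common counters, and the setting used is not given in the sources used here, and its part in the low values of these 3 genes was not tested. RPL36AL, a near-identical copy of RPL36A that the naming rule leaves out, averaged 177 CPM. Not every gene with shared exons was low: RPL38, with 57.8% shared with a gene on the opposite strand, stood at 2107 CPM per kilobase. No shared exonic base was found for 56 of the 82 genes. The 1014 rows of pseudogenes named after 76 of these genes held 71890 counts, 43212 of them in RPS2P5, against 6224441 counts in the genes themselves, so how reads were split between RPS2 and its copy is uncertain.

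**Figure D1:**
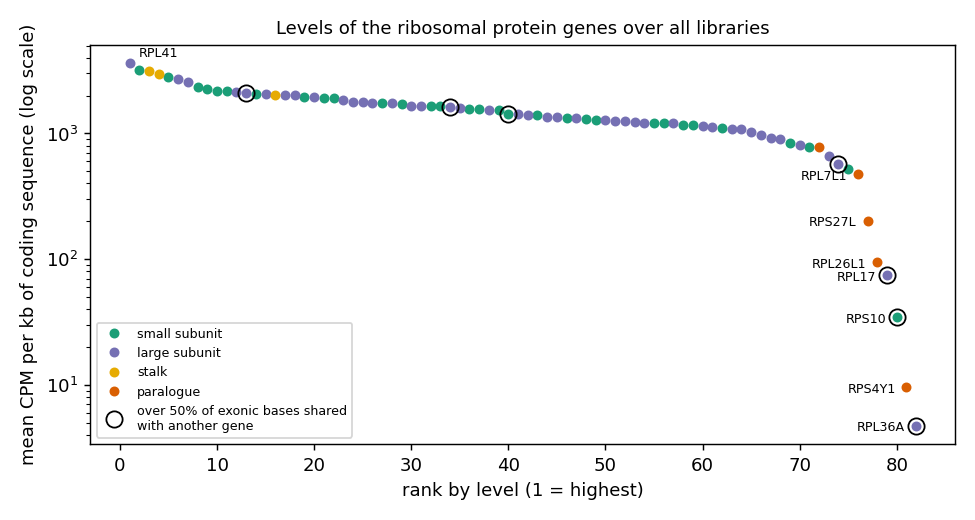
Mean CPM per kilobase of coding sequence over 12 libraries (log scale) for the 82 ribosomal protein genes in order of level, coloured by the place of the protein, with circles around the 7 genes that share over 50% of their exonic bases with another gene. Most core genes lie on a plateau around 1412, and the steep fall on the right holds 4 paralogues and the circled RPL17, RPS10 and RPL36A.

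As a whole, ribosomal protein genes took up between 6.09% and 6.64% of all counts, and the treatments moved this share little. It was 6.37%, 6.36% and 6.36% of counts in TNF-α plus Senexin B replicates 1, 2 and 3, and 6.09%, 6.14% and 6.22% in TNF-α replicates 1, 2 and 3. It was 6.64%, 6.29% and 6.30% in Senexin B replicates 1, 2 and 3, and 6.29%, 6.23% and 6.37% in vehicle replicates 1, 2 and 3. Every library of TNF-α plus Senexin B therefore lay above every TNF-α library, while the Senexin B and vehicle groups overlapped. Exact Clopper-Pearson 95% intervals of single libraries were 0.03 to 0.04 percentage points wide and cover counting error only.

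The group mean was 6.36% ± 0.006 with TNF-α plus Senexin B and 6.15% ± 0.066 with TNF-α, a difference of 0.21 percentage points. It was 6.41% ± 0.199 with Senexin B and 6.30% ± 0.070 with vehicle (SD, n = 3 each), a difference of 0.11 that was 0 without Senexin B replicate 1. TNF-α minus vehicle was −0.15 percentage points. With totals scaled by TMM factors, the TNF-α and vehicle means were both 6.23%, while TNF-α plus Senexin B stood at 6.45% and Senexin B at 6.36%, so the lower raw share with TNF-α against vehicle was not present on that scale. In Senexin B replicate 1, 77 of the 82 genes were above their own mean over the 12 libraries, by a median of 0.068 on the log2 scale, against 24 genes in replicate 2 and 26 in replicate 3. What set this library apart was not tested. In bulk RNA, a change in all cells and a change in some of them cannot be told apart.

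**Figure D2:**
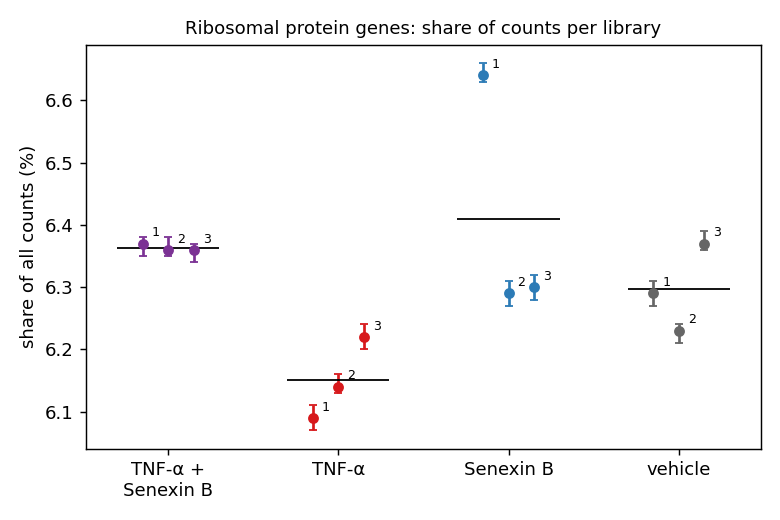
Percent of all counts that fell on the 82 ribosomal protein genes in each library, numbered by replicate, with exact 95% counting intervals and the group mean as a line; the axis does not start at 0. The 3 TNF-α libraries are the lowest of the 12, and Senexin B replicate 1 at 6.64% is the highest.

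Single ribosomal protein genes hardly changed with TNF-α. In edgeR's quasi-likelihood fit, with p-values adjusted over all 13084 genes after Benjamini and Hochberg, 5 of the 82 passed an adjusted p of 0.05 between TNF-α and vehicle (6.10%, against 10.0% of all genes), 2 higher (against 5.81% of all genes) and 3 lower (against 4.20%). The median log2 fold change of the 82 genes was 0.01, against −0.005 for all tested genes, and their median absolute change was 0.04, against 0.108. The small changes were measured closely. The median standard error was 0.04, and the 95% interval lay within ±0.25 on the log2 scale for 75 of the 82 genes. The exceptions were RPL22L1, RPL36, RPL36A, RPL39, RPS15, RPS28 and RPS4Y1.

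RPS15, a protein of the head of the small subunit near the decoding site, fell with TNF-α. It had 320.1, 347 and 325 CPM in TNF-α replicates 1, 2 and 3, against 385, 366 and 369 CPM in vehicle replicates 1, 2 and 3. The groups did not overlap, and the log2 fold change was −0.17 ± 0.04 (SE, adjusted p = 0.00307). RPL13, a large-subunit protein, averaged 1128 ± 90.8 CPM with TNF-α and 1238 ± 26.9 CPM with vehicle (SD, n = 3 each), with all TNF-α libraries below all vehicle libraries and a log2 fold change of −0.13 ± 0.04 (adjusted p = 0.0315, edgeR). RPL36, also of the large subunit, had 336, 382 and 372 CPM with TNF-α, against 426, 385 and 404 CPM with vehicle, which gave −0.15 ± 0.05 (adjusted p = 0.0361, edgeR).

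The 2 genes called higher encode large-subunit proteins. RPL39, which lines the exit tunnel for the nascent chain, had 156, 144 and 146 CPM with TNF-α, against 139, 129 and 133 CPM with vehicle, without overlap, for a log2 fold change of 0.15 ± 0.05 (adjusted p = 0.0405, edgeR). RPL7 averaged 1589 ± 65.2 CPM with TNF-α and 1483 ± 30.3 CPM with vehicle (SD, n = 3 each), where TNF-α replicate 2 and the highest vehicle library both had 1518 CPM, and changed by 0.10 ± 0.03 (adjusted p = 0.0478, edgeR). The stalk genes RPLP1 (−0.09 ± 0.04, adjusted p = 0.098) and RPLP2 (−0.10 ± 0.04, adjusted p = 0.0678) and RPLP0 (0.03 ± 0.03, adjusted p = 0.665) did not pass edgeR's test. Neither did RPSA, whose protein also serves as laminin receptor (0.05 ± 0.03, adjusted p = 0.381), nor RPS27A, which encodes a fusion with ubiquitin (0.06 ± 0.04, adjusted p = 0.349).

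Of these 5 calls, that of RPS15 held in all 12 fits that left out 1 library (adjusted p of at most 0.0259, edgeR). RPL13 lost its call without vehicle replicate 1, vehicle replicate 3 or TNF-α replicate 1 (adjusted p between 0.0936 and 0.234), and RPL36 lost its call without these or TNF-α replicate 3 (between 0.0531 and 0.207). RPL39 lost it in 7 of the 12 fits (adjusted p between 0.0512 and 0.173), those without vehicle replicate 2 or 3, TNF-α replicate 1 or 3, Senexin B replicate 1 or 3 or TNF-α plus Senexin B replicate 2. RPL7 lost it in 9 (between 0.0517 and 0.191), all but those without vehicle replicate 3, TNF-α replicate 2 or TNF-α plus Senexin B replicate 1. The count of 5 was 2 without TNF-α replicate 1 or 3 or vehicle replicate 3, 3 without vehicle replicate 1 or 2, Senexin B replicate 1 or 3 or TNF-α plus Senexin B replicate 2, and 9 without TNF-α replicate 2. With offsets that remove each library's GC trend, none of the 5 kept its call (RPS15 at an adjusted p of 0.336), while RPL3, higher, and RPLP1, lower, passed. Without vehicle replicate 1 and TNF-α replicate 1 together, 1 gene remained, RPS15 (adjusted p = 0.0475, edgeR). By DESeq2 it was also 1, RPS15 (adjusted p = 0.00869), with RPL13 at 0.061 and RPL7 at 0.113.

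With Senexin B added to TNF-α, 8 of the 82 genes rose against TNF-α alone and 0 fell by the same test (9.76%, against 5.45% of all genes called in either direction and 2.90% called higher). Among them were RPL13A, RPL13 and RPL3 of the large subunit, RPS2 and RPS15 of the small subunit, and the stalk genes RPLP1 and RPLP2. Each rose by 0.18 or less on the log2 scale. The median over the 82 genes was 0.037, against 0.001 over all tested genes, and 64 of the 82 were above 0. For 24 genes the 3 libraries of TNF-α plus Senexin B all lay above the 3 TNF-α libraries, and for 0 genes all below, against 11.3% of all tested genes above and 11.3% below. The summed level of the 5 epithelial markers was also higher, at 4478 to 4522 CPM with TNF-α plus Senexin B and 3872 to 4314 CPM with TNF-α. Of these markers, 2 rose and 0 fell: the keratin gene KRT8 by 0.17 ± 0.03 (adjusted p = 0.000866, edgeR) and its partner KRT18 by 0.14 ± 0.04 (adjusted p = 0.0364, and 0.411 with GC offsets), at transcript GC contents of 60.3% and 60.5%. The other 3 markers did not pass, with means of 359 and 368 CPM for EPCAM, 623 and 622 CPM for KRT19 and 66.9 and 64.3 CPM for CDH1. The sum was also higher with Senexin B (4601 to 4686 CPM) than with vehicle (4166 to 4493 CPM), where 0 of the 82 genes passed. The part of these markers in the result was not tested. The comparison of TNF-α plus Senexin B with TNF-α uses the same TNF-α libraries as that of TNF-α with vehicle. The genes that were low with TNF-α there thus enter here with the same values.

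RPL13A, a large-subunit protein also known from a complex that silences inflammatory mRNAs in human myeloid cells, had 1662, 1641 and 1635 CPM in TNF-α plus Senexin B replicates 1, 2 and 3, against 1432, 1513 and 1498 CPM in TNF-α replicates 1, 2 and 3. The groups did not overlap, and the log2 fold change was 0.15 ± 0.03 (SE, adjusted p = 0.00157, edgeR). RPL13 had 1326, 1261 and 1241 CPM with TNF-α plus Senexin B, against 1027, 1202 and 1157 CPM with TNF-α, for a log2 fold change of 0.18 ± 0.04 (adjusted p = 0.00626, edgeR). Its lowest TNF-α library was replicate 1, as for all 8 genes called here.

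RPS2, near the mRNA entry channel of the small subunit, had 2553, 2582 and 2555 CPM with TNF-α plus Senexin B, against 2141, 2416 and 2396 CPM with TNF-α (0.14 ± 0.04, adjusted p = 0.0101, edgeR). RPS15 averaged 369 ± 16.0 CPM with TNF-α plus Senexin B and 331 ± 14.4 CPM with TNF-α (0.16 ± 0.04, adjusted p = 0.0144). RPL3, a large protein that reaches toward the peptidyl transferase centre, averaged 2292 ± 28.8 CPM with TNF-α plus Senexin B and 2120 ± 80.6 CPM with TNF-α (SD, n = 3 each), a change of 0.11 ± 0.03 (adjusted p = 0.0231, edgeR). In all 3 genes every library of TNF-α plus Senexin B exceeded every TNF-α library.

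In the stalk, RPLP1 had 1109, 1119 and 1089 CPM with TNF-α plus Senexin B, against 960.1, 1072 and 1018 CPM with TNF-α, for 0.12 ± 0.04 (adjusted p = 0.0283, edgeR). RPLP2 had 712, 722 and 730 CPM with TNF-α plus Senexin B, against 619.5, 689.8 and 683 CPM with TNF-α, for 0.12 ± 0.04 (adjusted p = 0.0439, edgeR). RPLP0, on which the other stalk proteins are mounted, had 2806, 2905 and 2905 CPM with TNF-α plus Senexin B, against 2666, 2842 and 2875 CPM with TNF-α. These overlapped, and its change of 0.04 ± 0.03 did not pass (adjusted p = 0.545). Whether the stalk genes differed from each other was not tested.

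**Figure D3:**
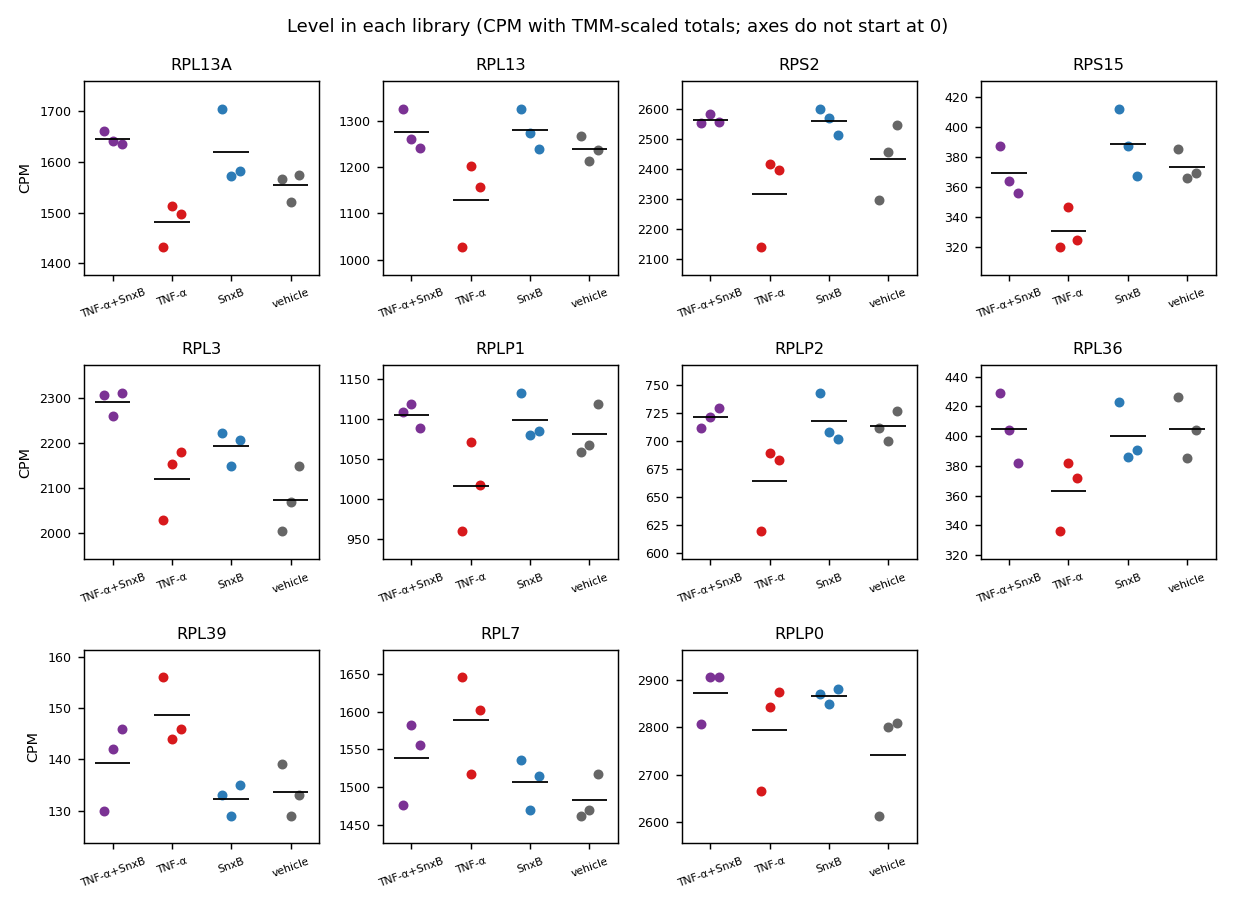
CPM in each library for 10 ribosomal protein genes called in either comparison and for RPLP0, with the group mean as a line; axes do not start at 0. In the panels from RPL13A to RPLP2, the 3 TNF-α plus Senexin B points lie above the 3 TNF-α points, and TNF-α replicate 1, the leftmost point of its group, is the lowest of that group.

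The calls of RPL13A and RPL13 held in all 12 fits that left out 1 library (adjusted p of at most 0.0153 and 0.0485, edgeR). The other 5 named genes each lost their call without TNF-α replicate 1 (RPS15 at an adjusted p of 0.0539 and RPLP2 at 0.313, edgeR) and in 1 to 6 further fits. RPS2 also lost it without TNF-α plus Senexin B replicate 2 (adjusted p = 0.0511), RPS15 without TNF-α plus Senexin B replicate 1 or TNF-α replicate 3 (up to 0.156), RPL3 without any 1 of the 3 TNF-α plus Senexin B libraries (up to 0.103) and RPLP1 without any 1 of these or TNF-α replicate 3 (up to 0.13, edgeR). RPLP2 also lost it without any 1 of the 3 TNF-α plus Senexin B libraries, Senexin B replicate 2 or 3 or vehicle replicate 2 (up to 0.161, edgeR). The count of 8 was 2 without TNF-α replicate 1 and 3 without TNF-α plus Senexin B replicate 1 or 2. With GC offsets it was 3, namely RPL13A (adjusted p = 0.0022), RPL13 (0.0104) and RPLP1 (0.0175, edgeR). By DESeq2 it was 5, with RPLP1 (adjusted p = 0.0702) and RPLP2 (0.0958) among those that did not pass.

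Senexin B without TNF-α moved none of these genes past the threshold. Between Senexin B and vehicle, 0 of the 82 passed, by edgeR or by DESeq2, against 3.04% of all genes, and 4 had an unadjusted p under 0.05 by edgeR, all higher, among them RPL3, RPLP0 and RPS2, against 14.2% of all genes at that unadjusted threshold. The median log2 fold change was 0.023, which changed sign to −0.009 when 1 library, Senexin B replicate 1, was left out. The gene nearest to the threshold, RPL3, had 2221, 2148 and 2207 CPM with Senexin B, against 2003, 2069 and 2148 CPM with vehicle (0.08 ± 0.03, adjusted p = 0.196). The 95% interval was within ±0.25 for 79 of the 82 genes, all but RPL36A, RPS10 and RPS4Y1.

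In the presence of Senexin B, TNF-α likewise moved 0 of the 82 genes past the threshold by edgeR or DESeq2, against 5.95% of all genes between TNF-α plus Senexin B and Senexin B, with 1 gene, RPL3, at an unadjusted p under 0.05 by edgeR, against 14.9% of all genes. RPL3 had 2306, 2259 and 2311 CPM with TNF-α plus Senexin B, against 2221, 2148 and 2207 CPM with Senexin B, which do not overlap (0.06 ± 0.03, adjusted p = 0.329), and it passed with GC offsets. RPS15, which fell with TNF-α against vehicle, had 387, 364 and 356 CPM with TNF-α plus Senexin B and 412, 387 and 367 CPM with Senexin B, and these overlap. The test of the difference between the TNF-α effects with and without Senexin B called 0 of the 82 genes by edgeR or DESeq2, against 0.0459% of all genes (6 genes). At an unadjusted p under 0.05 it had 3 (RPL36, RPL13 and RPLP2, each at an adjusted p of 0.754 or more), against 6.08% of all genes. The TNF-α effect on these genes was thus not shown to differ with Senexin B.

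**Figure D4:**
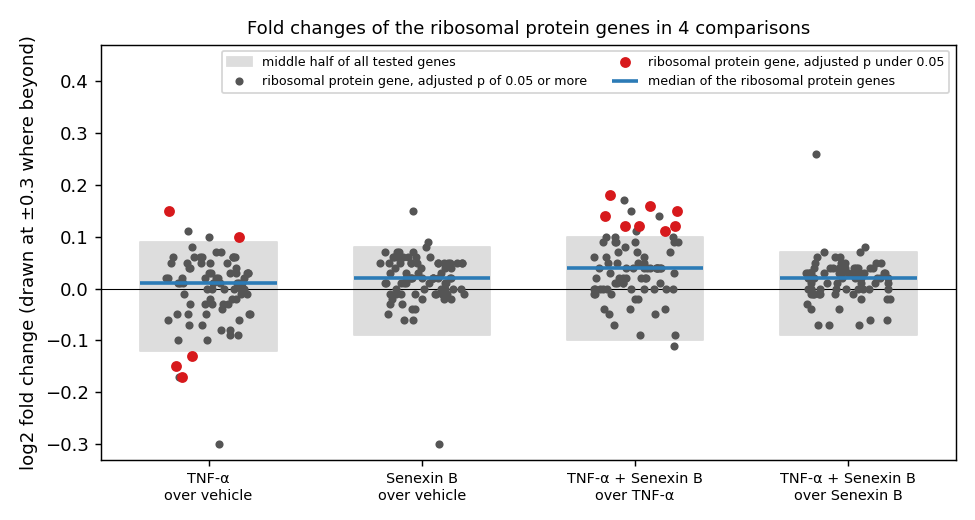
Log2 fold changes of the 82 ribosomal protein genes in 4 comparisons (points, red where the adjusted p is under 0.05), their median (blue line), and the interquartile range of all 13084 tested genes (grey); RPL36A is drawn at −0.3 in the comparisons with vehicle, where it was at −0.41 and −0.50. Most of the genes lie inside the grey band, and the 8 red points of TNF-α plus Senexin B over TNF-α are all above 0.

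The direction of these small changes varied with the GC content of the transcripts, which ran from 42.1% to 63.6% with a median of 49.5%. Between TNF-α and vehicle, 23 of the 27 genes with the lowest GC content (42.1% to 46.1%) were above 0 and both higher calls were among them, whereas 4 of the 27 with the highest (52.3% to 63.6%) were above 0 and the 3 lower calls were all in this group. Between TNF-α plus Senexin B and TNF-α the order was the opposite: all 27 genes of highest GC content were above 0, with 7 of the 8 calls, at a median of 0.094, and 16 of the 27 of lowest GC content, at a median of 0.004. The exception was RPLP1, called at a transcript GC content of 47.7%.

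Spearman's rho between log2 fold change and GC content, a description across genes with no p, was −0.63 for TNF-α over vehicle over the 82 genes and −0.41 over the 12223 tested genes of known GC content. It was 0.69, against 0.38 over all of these, for TNF-α plus Senexin B over TNF-α, 0.47, against 0.10, for Senexin B over vehicle, and −0.45, against −0.18, for TNF-α plus Senexin B over Senexin B. The sign was thus the same in the family as over all genes in each comparison. These comparisons share libraries, and a GC trend of varying size and sign was also present within single libraries. Taking each gene's deviation from its mean over the 12 libraries, rho over the 82 genes was −0.63, −0.13 and −0.57 in TNF-α replicates 1, 2 and 3, and −0.26, 0.40 and 0.45 in vehicle replicates 1, 2 and 3. It was 0.44, 0.28 and −0.04 in TNF-α plus Senexin B replicates 1, 2 and 3, and 0.51, 0.60 and 0.34 in Senexin B replicates 1, 2 and 3. Replicates of 1 group thus differed widely.

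Without vehicle replicate 1 and TNF-α replicate 1, rho over the ribosomal protein genes was −0.63 for TNF-α over vehicle, 0.59 for TNF-α plus Senexin B over TNF-α and 0.28 for Senexin B over vehicle. It stayed at −0.45 for TNF-α plus Senexin B over Senexin B, which uses neither library. Over all tested genes of known GC content, rho without these 2 libraries was weaker in the first 3 of these comparisons, at −0.29, 0.19 and 0.04. Without TNF-α replicate 1 alone, rho over the ribosomal protein genes was −0.41 for TNF-α over vehicle. Over all genes it was −0.59 in TNF-α replicate 1, against −0.12 and −0.16 in replicates 2 and 3. With offsets fitted to GC content in each library, rho over the ribosomal protein genes was between 0.02 and 0.19 in all comparisons. The offsets are fitted over all tested genes of known GC content, these included, and by construction remove only the trend over all of them. A GC trend from library preparation and one from a treatment cannot be told apart in this design.

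**Figure D5:**
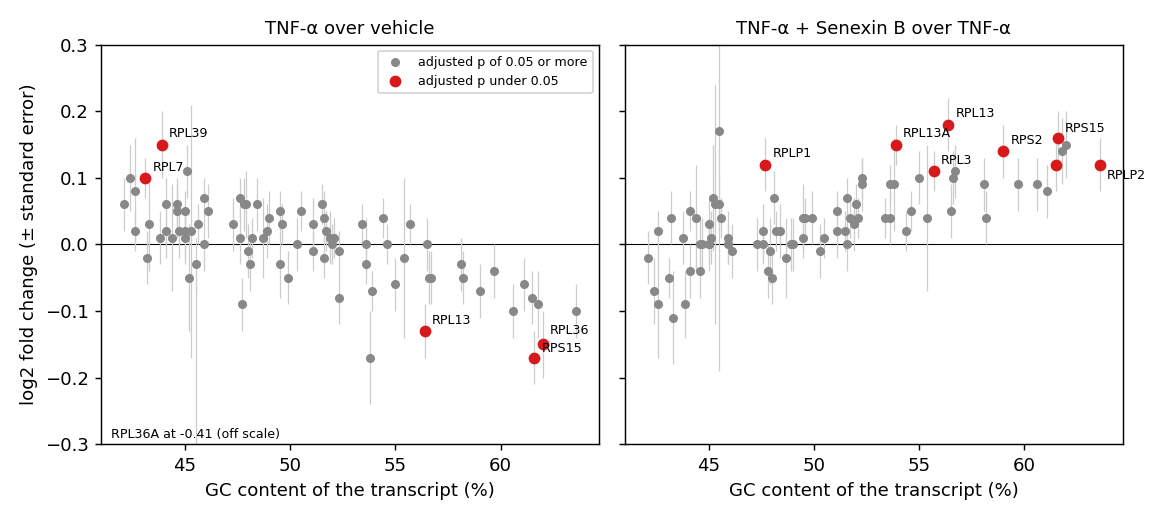
Log2 fold change with its standard error against the GC content of the transcript for the 82 ribosomal protein genes, for TNF-α over vehicle (left) and TNF-α plus Senexin B over TNF-α (right), with called genes in red. The points slope down on the left (rho −0.63) and up on the right (rho 0.69), and 10 of the 13 red points lie at a GC content above 52%.

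The paralogues were expressed below their core partners, and none passed edgeR's test over the 12 libraries with 1 coefficient per group. With the replicate number added to that fit, RPL7L1 passed between TNF-α and vehicle (adjusted p = 0.0386, edgeR). Over all libraries, RPS27L, known as a p53-induced gene, averaged 201 CPM per kilobase of coding sequence, against 1646 for RPS27, and RPL26L1 averaged 94.1, against 574 for RPL26. RPL7L1, a protein of ribosome assembly related to RPL7, stood at 473 CPM per kilobase, against 2055 for RPL7, and RPL22L1 at 777, against 974 for RPL22. RPL22L1, which is known in mouse to be repressed by RPL22, had 337, 272 and 293 CPM with TNF-α, against 309, 273 and 267 CPM with vehicle, and these overlap (0.08 ± 0.08, adjusted p = 0.621). RPL7L1 had 366, 376 and 375 CPM with TNF-α, against 329, 357 and 348 CPM with vehicle; all TNF-α libraries were above all vehicle libraries, but the change of 0.11 ± 0.04 did not pass (adjusted p = 0.0679), although it did without TNF-α replicate 1 (adjusted p = 0.0407, edgeR). RPS4Y1, the Y-linked counterpart of RPS4X, had between 4.94 and 9.05 CPM over the 12 libraries, against 1162 to 1283 CPM for RPS4X, so that its changes were measured with standard errors of 0.17 to 0.19.

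Other genes that build the ribosome or share its control were counted by list, beside the 10.0% of all tested genes that passed between TNF-α and vehicle: 17.9% of the ribosome assembly genes and 33.3% of the translation factors and other genes with TOP mRNAs passed there. Of 39 ribosome assembly genes, 7 rose and 0 fell between TNF-α and vehicle, at a median of 0.06. DDX21, a nucleolar RNA helicase, averaged 863 ± 22.1 CPM with TNF-α and 748 ± 17.4 CPM with vehicle (0.21 ± 0.03, adjusted p = 6.84e-06). NOLC1, a nucleolar chaperone of small nucleolar particles, averaged 1009 ± 6.59 CPM with TNF-α and 921 ± 7.04 CPM with vehicle (0.13 ± 0.03, adjusted p = 0.00357, edgeR), and both calls held with GC offsets, whereas that of DDX18 (0.14 ± 0.04) did not. DDX21 also rose in TNF-α plus Senexin B over Senexin B (0.15 ± 0.03, adjusted p = 0.00173, edgeR), as did 1 other assembly gene, RIOK1 (0.20 ± 0.06). These were 5.13% of the list, against 5.95% of all genes. Between TNF-α plus Senexin B and TNF-α, RRP12 and BOP1 rose and SBDS fell (7.69%, against 5.45% of all genes), and none of these 3 calls held with GC offsets. Between Senexin B and vehicle 1 gene, DDX10, rose (0.23 ± 0.06), which was 2.56% of the list, against 3.04% of all genes.

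Of 15 tested translation factors and other genes with TOP mRNAs, 4 rose and 1 fell between TNF-α and vehicle, among them EIF3E (0.16 ± 0.04) and EEF1D (−0.24 ± 0.05), and the calls of EIF3E, NAP1L1 and EEF1D did not hold with GC offsets. EEF2, the factor that moves the ribosome along, rose by 0.15 ± 0.03 in TNF-α plus Senexin B over TNF-α, and EEF1A1, which delivers aminoacyl-tRNA, by 0.15 ± 0.03 in TNF-α plus Senexin B over Senexin B, both also with GC offsets. Each was the only call of the list in its comparison (6.67%, against 5.45% and 5.95% of all genes). Of 77 tested mitochondrial ribosomal protein genes, which encode another ribosome, 2 rose and 3 fell between TNF-α and vehicle, 1 rose in each comparison of added Senexin B, with and without TNF-α, and 0 passed between TNF-α plus Senexin B and Senexin B. Between TNF-α and vehicle this was 6.49% of the list, against 10.0% of all genes. With added Senexin B it was 1.3%, against 5.45% of all genes with TNF-α and 3.04% without. Of 13 genes of the mTOR pathway that controls TOP mRNAs, EIF4EBP1, a translational repressor, rose in Senexin B over vehicle (78.2 ± 1.64 CPM and 64.2 ± 0.74 CPM, 0.28 ± 0.06, adjusted p = 0.00207, edgeR) and in TNF-α plus Senexin B over TNF-α (0.26 ± 0.06, adjusted p = 0.00799, lost with GC offsets at 0.162). It was the only call of its list in both comparisons (7.69%, against 3.04% and 5.45% of all genes). The RNA polymerase I list had 1 gene lower with TNF-α over vehicle (UBTF) and 1 higher in TNF-α plus Senexin B over Senexin B (TAF1D), of 11, and the list of 10 small nucleolar RNA host genes had 1 lower gene, SNHG7, with TNF-α and with Senexin B, each against vehicle. Each single call was 9.09% of the first list, against 10.0% and 5.95% of all genes in these comparisons. For the second list it was 10%, against 10.0% and 3.04%. Between TNF-α and vehicle neither UBTF (adjusted p = 0.0995, edgeR) nor SNHG7 (0.539) passed with GC offsets, and SNHG7 kept its call in 5 of the 12 fits that left out 1 library.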

How the data were processed

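The deposited values were read counts per gene symbol in 12 libraries, and the authors' processing used STAR 2.4, SAMtools 1.2 and featureCounts from Subread 1.4.6 on hg38 (GRCh38), per the submitters' processing notes; total RNA was sequenced after TruSeq library preparation, per the labels' protocols. The annotation, strand setting and treatment of multiply mapped or shared reads were not given in the sources used here. The kit does not mark strand, so reads of a gene and of its antisense partner cannot be told apart.

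Counts were fitted with edgeR 4.0.16 (R 4.3.3) over all 12 libraries with 1 coefficient per group, TMM factors, filterByExpr (minimum count 10) and a robust quasi-likelihood F-test, adjusted over 13084 genes at 0.05. The biological coefficient of variation was 3.62%. The fit was checked on simulated data. DESeq2 1.42.0 and the other settings are described below. Levels per kilobase use the coding length in GENCODE 29, chosen after the values were seen because transcript models of short genes differ in their untranslated parts. GC content is that of 1 principal transcript per gene. RPS28 and RPL38 were named after their values were seen; other genes follow a written rule (called, highest, lowest, stalk, paralogue or near the minimum). Some members are not reported by name here. Members and lists were chosen with earlier results of these data known, and no p is given over the members. All columns were assigned to a sample. Totals ranged from 5835226 to 9281176 counts, and p-values cover the spread among these libraries.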

Additional observations from a re-analysis of the deposited data

How the results depend on the processing

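Between TNF-α and vehicle, the count of ribosomal protein genes called, 5, was 2 with only these 2 groups fitted and with GC offsets, and 1 with GC offsets and replicate block, without vehicle replicate 1 and TNF-α replicate 1, and by DESeq2. For TNF-α plus Senexin B over TNF-α, the count of 8 was 5 with only these 2 groups, without the same 2 libraries and by DESeq2, 3 with GC offsets and 4 with GC offsets and replicate block. For TNF-α plus Senexin B over Senexin B, the count of 0 was 1, RPL3, with GC offsets with or without the replicate block. Leaving out 1 library gave counts from 2 to 9 for TNF-α over vehicle and from 2 to 10 for TNF-α plus Senexin B over TNF-α. Counts over all genes by DESeq2 were 838 for TNF-α over vehicle (edgeR 1309), 255 for Senexin B over vehicle (edgeR 398) and 410 for TNF-α plus Senexin B over TNF-α (edgeR 713). For Senexin B over vehicle the count was 714 with GC offsets and replicate block and from 236 to 589 without 1 library. For TNF-α plus Senexin B over TNF-α it was from 451 to 815 without 1 library. For the difference of the TNF-α effects it was 10 without the filter and from 2 to 9 without 1 library, against 6. Except for the offsets, which are fitted to GC content, and the fits with fewer libraries, the cause was not tested.

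Spearman's rho with GC content, given here in the order TNF-α over vehicle, Senexin B over vehicle, TNF-α plus Senexin B over TNF-α, TNF-α plus Senexin B over Senexin B and the difference of the TNF-α effects, was 0.14, 0.19, 0.07, 0.12 and 0.02 with GC offsets, and −0.41, −0.08, 0.31, −0.21 and 0.34 against the GC content of the promoter window. Against that of the coding sequence, an alternative added after seeing the data, it was 0.77 for TNF-α plus Senexin B over TNF-α and −0.54 for TNF-α plus Senexin B over Senexin B. Without vehicle replicate 1 and TNF-α replicate 1 it was 0.28 for Senexin B over vehicle and 0.59 for TNF-α plus Senexin B over TNF-α. Leaving out 1 library gave, in the same order, −0.72 to −0.41, 0.28 to 0.53, 0.59 to 0.73, −0.50 to −0.25 and 0.17 to 0.64. Leaving out 1 library also gave differences in the ribosomal share from 0 to 0.18 percentage points for Senexin B over vehicle and from −0.11 to 0.07 for TNF-α plus Senexin B over Senexin B, where Senexin B replicate 1 decided the sign. The median fold change of the family ran, without 1 library, from −0.01 to 0.019 for TNF-α over vehicle, from −0.009 to 0.042 for Senexin B over vehicle and from −0.011 to 0.046 for the difference of the TNF-α effects. Without Senexin B replicate 1 the second of these was −0.009 and the third 0.046, a larger move than the standard deviation of 0.03 between replicates; the other settings run moved each median by less.

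The replicate numbers were not taken to pair the libraries: over all genes, the correlation of deviations in 18 same-numbered pairs ran from −0.01 to 0.10, although 11 of 12 libraries correlated best with their own number. Over the 82 genes it ran from −0.49 to 0.65, and all 3 pairs of TNF-α plus Senexin B with Senexin B were at 0.34 or more. With the replicate block, 6 ribosomal protein genes were called for TNF-α over vehicle (4 of the 5 among them; RPL13 was lost at an adjusted p of 0.0878, and RPL7L1 was among those gained, at 0.0386), 10 for TNF-α plus Senexin B over TNF-α and 0 in the other comparisons, and 1470, 479, 871, 827 and 6 of all genes in the comparisons in the order above. Depth limits RPL36A and RPS4Y1, whose fold changes have standard errors of 0.17 or more.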
